A study of Mus musculus with 12 samples.

Results

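The 3 single-exon gene copies *Gm10260*, *Tpm3-rs7* and *Atp6v0c-ps2*, and the parent genes *Tpm3* and *Atp6v0c* were followed across the mouse cochlea. They are 5 of the 37432 rows of the expression table and were found by name. The copies were chosen on the values described here, because each was high in homozygous libraries and near 0 in wild-type libraries. Their difference between genotypes is therefore a description and carries no test. The name of *Gm10260* gives no parent, so *Rps18*, its closest transcript outside its own locus, was added as the candidate source and counted as a parent.

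A retrocopy arises when the messenger RNA of a gene is reverse transcribed and inserted elsewhere in the genome, so that the copy lacks the introns of its parent and usually its promoter. Most retrocopies are silent pseudogenes, whereas a copy that is transcribed and keeps an open reading frame is called a retrogene. *Rps18* encodes a protein of the small ribosomal subunit, *Tpm3* encodes a tropomyosin that lies along actin filaments, and *Atp6v0c* encodes the c subunit of the membrane ring of the vacuolar proton pump (V-ATPase), which acidifies vesicles and, in some epithelia of the inner ear, secretes acid.

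The libraries came from cochleae at P14 that were cut into apical, middle and basal turns. Wild-type and *Gjb2* 35delG/35delG (homozygous) mice were compared with 2 biological repeats for each turn, which gives 6 groups and 12 libraries. Tetraploid complementation with male embryonic stem cells gave the homozygous males, whose background was close to C57BL/6J; they were born by cesarean section and raised by ICR foster mothers. The wild-type males were bought at a matching age, so genotype and the origin of the mice cannot be told apart, and the number of mice or stem cell lines behind a library is not given in the sources used here. Levels below are scaled FPKM, that is fragment numbers relative to transcript length and library size, divided by 1 factor per library. FPKM is per length, which lets levels of different genes be set side by side, except that reads shared by a copy and its parent can lower or raise either value.

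Each copy was nearly identical to its parent, and few bases tell a copy from its parent, which decides what a read can be assigned to. The stretches below are the parts of the coding sequence that hold the most of these bases. Only the stretch of *Atp6v0c-ps2* holds every difference, and the other copies also differ outside their stretch. Each pair covers the same 91 bases of the parent's coding sequence, read 5′ to 3′ on the strand of the gene from the GENCODE M21 transcripts of GRCm38, with the differing bases in capitals. The *Rps18* stretch lies at chr17:33952104-33952296 on the minus strand and crosses an intron, and its match in *Gm10260* lies at chr13:97760191-97760281 on the minus strand.
Rps18: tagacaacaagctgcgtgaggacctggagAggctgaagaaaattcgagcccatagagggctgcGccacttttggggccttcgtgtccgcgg
Gm10260: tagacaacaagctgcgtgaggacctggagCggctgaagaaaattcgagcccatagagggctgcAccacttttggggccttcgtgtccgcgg

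The *Tpm3* stretch lies at chr3:90079784-90086456 on the plus strand and also crosses an intron, and the stretch of *Tpm3-rs7* lies at chr14:113314728-113314818 on the plus strand.
Tpm3: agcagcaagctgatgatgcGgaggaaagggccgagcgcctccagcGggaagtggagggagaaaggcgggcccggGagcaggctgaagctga
Tpm3-rs7: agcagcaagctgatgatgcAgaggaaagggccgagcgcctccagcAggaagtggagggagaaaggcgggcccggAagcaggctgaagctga

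The *Atp6v0c* stretch lies at chr17:24164807-24169220 on the minus strand, across an intron, and that of *Atp6v0c-ps2* at chr6:37806150-37806240 on the plus strand.
Atp6v0c: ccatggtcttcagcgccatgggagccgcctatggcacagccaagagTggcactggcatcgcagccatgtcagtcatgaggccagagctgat
Atp6v0c-ps2: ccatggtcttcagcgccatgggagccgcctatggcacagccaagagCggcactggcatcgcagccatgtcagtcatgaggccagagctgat

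*Gm10260* is a 561-nt gene of 1 exon on chromosome 13 (97760072 to 97760632), typed as protein coding with a retrogene tag. It differed from the 5-exon *Rps18* transcript at 5 of 545 aligned bases (99.08% identity), and its reading frame has no stop within the 456 coding bases of *Rps18*. Counted from the first base of the start codon, with the parent's base first, the coding differences are T186C and A337C, which keep the amino acid, and G371A and G431A, which change it. RefSeq lists the same gene as a pseudogene under the name *Rps18-ps6*. *Tpm3-rs7*, on chromosome 14 (113314608 to 113316754), is 1 exon of 2147 nt with a retrogene tag. It differed from the 8-exon *Tpm3* transcript at 13 of 2102 aligned bases, with 3 further insertions or deletions (99.38% identity). Only 3 of these lay in the 744 coding bases, G72A, which keeps the amino acid, and G98A and G127A, which change it. *Atp6v0c-ps2*, a processed pseudogene on chromosome 6 (37806086 to 37806550), spans 465 nt, all of which align to the coding sequence of the 3-exon *Atp6v0c*. It differed at a single base, T111C, which keeps the amino acid.

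The plot of differing bases along the copies shows how unevenly they lie. The authors kept uniquely mapped reads for counting, but whether StringTie calculated the FPKM from these reads alone is not stated outright. Only fragments that touch such a base, or that leave the copied part, can be assigned uniquely to a copy or its parent. Of the 412 windows of 1 read length (150 nt) in *Gm10260*, 72.3% were found in no other annotated transcript, apart from the antisense *Gm26619* at the same locus. This share was 66.2% for *Tpm3-rs7* and 35.1% for *Atp6v0c-ps2*, the lowest of the copies. The parents had unique shares of 73.7% for *Rps18*, 67.5% for *Tpm3* and 80.2% for *Atp6v0c*, whose transcript of 1183 nt runs beyond the copied part. With windows of 300 nt, near the span of a read pair, the unique shares of the copies rose to 100%, 82.2% and 66.9%. The part of unassigned reads in the levels below was not tested.

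**Figure D1:**
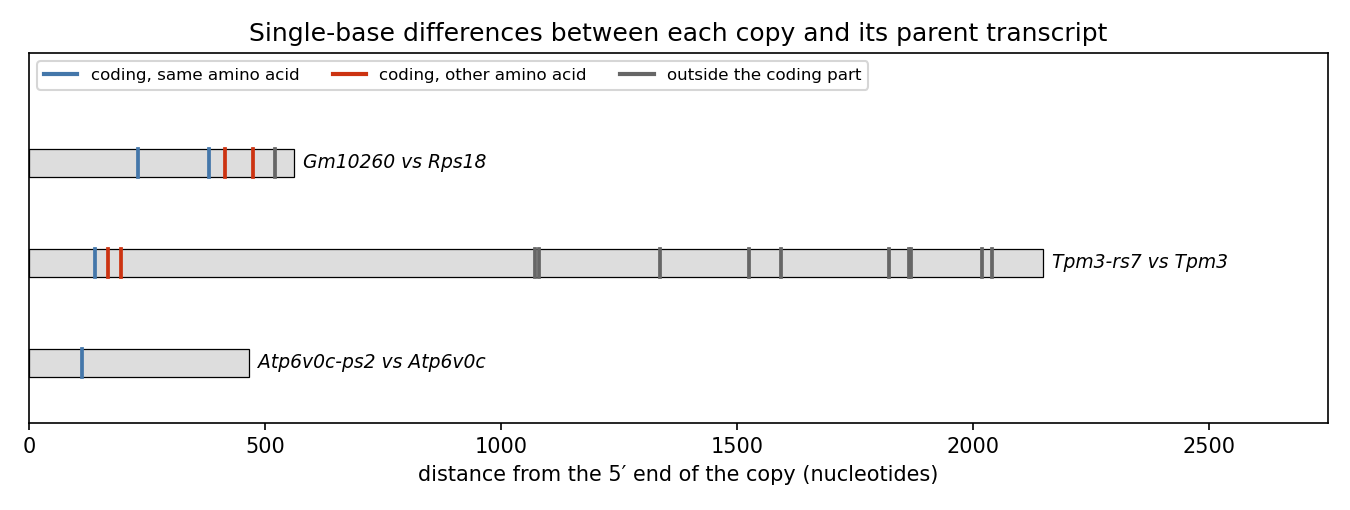
Single-base differences between each copy and the transcript of its parent, drawn to scale by their distance in nucleotides from the 5′ end of the copy (grey bars, the copies). Colours separate coding differences that keep or change the amino acid from those outside the coding part; *Atp6v0c-ps2* carries 1 difference and *Tpm3-rs7* 13, of which 3 lie near its 5′ end.

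The rows beside the copies on their chromosomes stayed near 0 in both genotypes. *Gm26619*, a long noncoding RNA annotated on the opposite strand over *Gm10260*, was listed at 0 in 10 of 12 libraries and reached 0.0792 in a wild-type library, and *Gm34388* on the other side reached 0.141. Whether reads were counted by strand is not given in the sources used here. The neighbours of *Tpm3-rs7*, *Gm49000* and *4930524C18Rik*, were each at 0 in 11 libraries and reached 0.015 and 0.038. Beside *Atp6v0c-ps2*, *Ybx1-ps2* reached 0.193 and *Gm7492* 0.0178. Other copies of the same parents were low as well, with the highest, the Rps18-like pseudogene *Gm15696*, at up to 1.76 (wild-type) and 1.08 (homozygous). *Atp6v0c-ps1* reached 0.0878, *Rps18-ps3* 0.268, *Rps18-ps2* was listed at 0 in all 12 libraries, and *Gm11361*, the retrogene most like *Gm10260*, reached 0.935 (wild-type) and 0.73 (homozygous).

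The deposited FPKM summed to between 316425 and 408162 per library, which is not a depth, and the depth behind a value is unknown. Scale factors lay between 0.917 and 1.06. *Gjb2*, the mutated gene, had a mean scaled FPKM of 266.5 ± 94.8 (wild-type) and 266.5 ± 150.4 (homozygous; SD, n = 6 each). The summed level of the 16 cochlear markers ranged from 6907 to 9065 in the wild-type and from 7362 to 12170 in the homozygous apical and middle libraries, but it was only 636.8 and 2416 in the homozygous basal libraries. Means that include these basal libraries are therefore also given without them. Skeletal muscle markers, which would accompany muscle tropomyosins, summed to at most 16.74. Among them *Casq1* reached 12.47 and *Mb* 2.56, whereas *Myh7* stayed at or below 0.0242. Smooth muscle and pericyte markers summed to between 32.52 and 79.72. Osteoclast markers, from cells rich in V-ATPase, summed to between 9.05 and 92.5 except in 1 homozygous middle library at 396. Markers of acid-secreting epithelial cells summed to between 20.15 and 33.03 in wild-type libraries. They reached 94.91 and 110 in the homozygous apical, 36.69 and 42.31 in the middle and only 0.496 and 25.11 in the basal libraries. These sums came mostly from *Slc26a4* (at most 101.8) and so do not show the number of such cells. *Atp6v0a4* was at most 1.92 (wild-type) and 7.92 (homozygous), *Foxi1* at most 0.698 and *Atp6v1b1* at most 0.488. The part of such cells in the *Atp6v0c* values was not tested. Erythroid markers summed to between 231.9 and 4992.

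The 3 copies were detected in all 6 homozygous libraries at 10 scaled FPKM or more, and none exceeded 1.51 in a wild-type library. *Gm10260* was listed at 0 in 4 of the wild-type libraries, and the other 2 were at 0.0746 (apical) and 0.00706 (basal). In homozygous libraries it was at 18.6 and 28.7 in the apical, 37.6 and 23.8 in the middle and 13.1 and 22.7 in the basal turn. No fold is given for *Gm10260*, since most of the wild-type values are 0. *Tpm3-rs7* was at 0.0586 and 0.279 in wild-type apical, 0.198 and 0.245 in middle and 0.209 and 0.26 in basal libraries. The same copy was at 14.4 and 13.96 in homozygous apical, 19.6 and 14.9 in middle and 10.6 and 10.1 in basal libraries, so that its mean of 13.9 ± 3.44 was 66.9 times the wild-type mean of 0.208 ± 0.0794 (SD, n = 6 each). *Atp6v0c-ps2* was the only copy with a wild-type level near 1, at 0.89 and 1.21 in apical, 1.49 and 1.27 in middle and 0.733 and 1.51 in basal libraries. Its homozygous levels were 26.0 and 31.5 in apical, 25.7 and 23.9 in middle and 34.4 and 42.1 in basal libraries, a mean of 30.6 ± 6.87 that was 25.9 times the wild-type mean of 1.18 ± 0.315 (SD, n = 6 each).

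**Figure D2:**
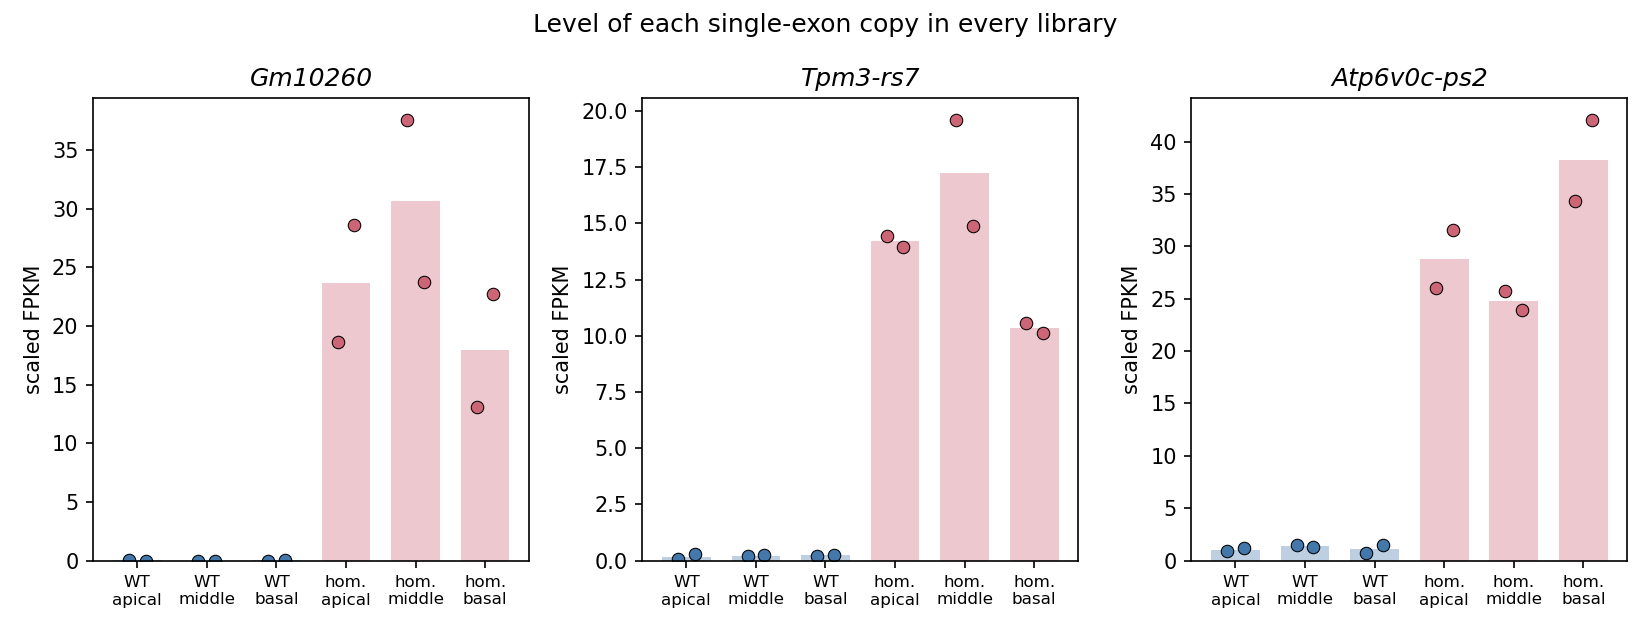
Scaled FPKM of the 3 copies in each of the 12 libraries, by genotype (WT, wild-type; hom., homozygous) and turn; points are libraries and bars the mean of 2. The lowest homozygous library of each copy (13.1, 10.1 and 23.9) lies above its highest wild-type library (0.0746, 0.279 and 1.51).

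The genotypes did not overlap for any copy, which is the pattern that chose them. Without the basal turn the homozygous means were 27.1 ± 8.06 for *Gm10260*, 15.7 ± 2.61 for *Tpm3-rs7* and 26.8 ± 3.29 for *Atp6v0c-ps2* (SD, n = 4). In whole tissue, fewer cells of a type and less RNA per cell cannot be told apart.

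The parents were expressed in every library of both genotypes, and none of them passed the test between genotypes. *Rps18* was at 226.9 and 203.5 in wild-type apical, 316.2 and 306.0 in middle and 298.4 and 464.1 in basal libraries. In homozygous mice it was at 178.4 and 240.3 in apical, 352.3 and 183.3 in middle and 115.8 and 232.1 in basal libraries. The genotypes overlapped in the apical and middle turns but not in the basal turn, which can easily arise by chance with 2 repeats on each side. The basal log2 difference, homozygous minus wild-type, was −1.18 (SE 0.41, adjusted p = 0.0813 by limma). It was −0.68 without the first homozygous basal library and −1.66 without the second, with adjusted p = 0.356 and 0.0463.

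*Tpm3* was at 42.2 and 47.0 in wild-type apical, 47.1 and 41.4 in middle and 59.7 and 48.8 in basal libraries, and at 39.9 and 36.9, 52.0 and 41.0, and 34.3 and 33.3 in the same turns of homozygous mice. In the apical and the basal turn the homozygous repeats lay below the wild-type repeats, whereas the middle turn overlapped. With 2 repeats on each side, such a separation, also that of *Rps18* or *Atp6v0c* in a turn, can easily arise by chance. Its share over all genes was not counted. By limma the apical difference of *Tpm3* was −0.21 (95% interval −0.59 to 0.17, adjusted p = 0.59). The middle difference was 0.06 (−0.32 to 0.45; adjusted p = 0.847) and the basal one −0.66 (−1.04 to −0.28; adjusted p = 0.0292). The basal value passed neither the adjusted p of 0.01 nor the fold of 2. *Atp6v0c* was at 86.6 and 100.3 in wild-type apical, 105.0 and 113.5 in middle and 86.9 and 104.0 in basal libraries. In homozygous mice its values of 65.5 and 92.6 in the apical and 97.0 and 127.3 in the basal turn overlapped with wild-type, while 76.4 and 68.8 in the middle turn lay below it. The middle difference was −0.58 (95% interval −1.08 to −0.09; adjusted p = 0.141 by limma) and the basal one 0.22 (−0.27 to 0.72; adjusted p = 0.532).

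**Figure D3:**
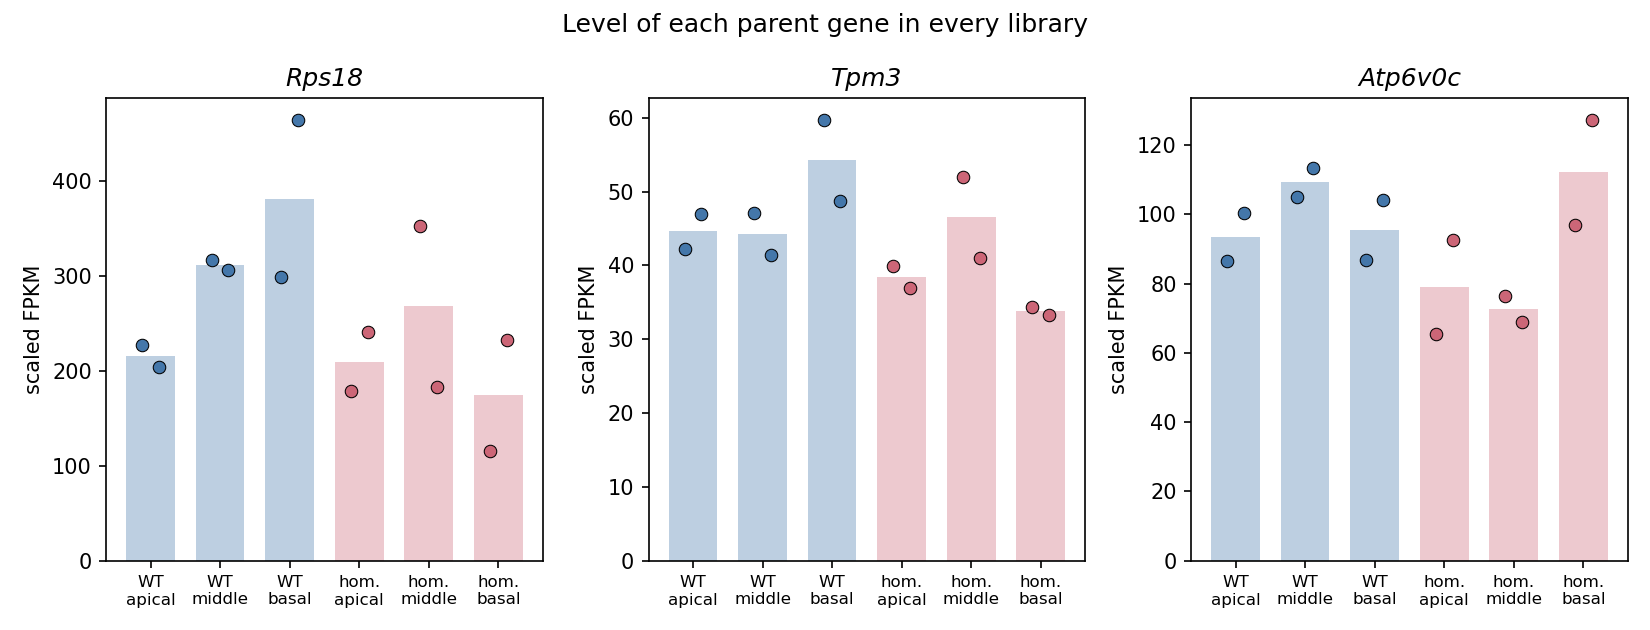
Scaled FPKM of the 3 parent genes in each of the 12 libraries, with symbols as for the copies. All 3 genes are expressed in every library. The homozygous basal libraries of *Rps18* (115.8 and 232.1) and *Tpm3* (34.3 and 33.3) are below the wild-type basal ones. How many of all genes separate in this way was not counted.

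Of the 9 tests of a parent in a turn, limma called 0 (a call needs an adjusted p below 0.01 and more than a 2-fold change), and 3 had an unadjusted p under 0.05. Over all 16215 genes tested, the called share was 0.179% for apical, 0.179% for middle and 4.29% for basal libraries, and the share with an unadjusted p under 0.05 was 16.4%, 25.4% and 32.4%. In the mean over the turns, where 0.376% of all genes were called, 0 of the 3 parents were called and 1 had an unadjusted p under 0.05. For this mean, the share of all genes with such a p was not counted. The mean differences were −0.51 for *Rps18*, −0.27 for *Tpm3* and −0.21 for *Atp6v0c*. An exact permutation of the genotypes within turns, two-sided with 216 assignments and a smallest possible p of 0.00926, gave p = 0.13, 0.0833 and 0.204 (0.194, 0.194 and 0.204 adjusted over the 3 parents). Without the basal turn the mean differences were −0.16, −0.06 and −0.41, with adjusted p = 0.649, 0.728 and 0.0779 by limma. These p-values measure only the spread between these libraries, which may be technical. The tests behind them treat all libraries as independent, although turns of a repeat may come from the same mice.

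Within homozygous libraries, the level of each copy as a share of its parent varied less than the levels of both. *Gm10260* was at 10.4% and 11.9% of the *Rps18* level in the apical, 10.7% and 13.0% in the middle and 11.3% and 9.8% in the basal turn. The share therefore varied 1.32-fold over the 6 libraries, while *Gm10260* itself varied 2.87-fold. Its mean was 11.2% ± 1.14 (SD, n = 6), the lowest of the copies. *Tpm3-rs7* was at 36.2% and 37.8% of *Tpm3* in apical, 37.7% and 36.3% in middle and 30.8% and 30.4% in basal libraries, so that both basal libraries lay below the other 4. The mean share was 34.9% ± 3.38, and 37.0% ± 0.874 (SD, n = 4) without the basal turn. *Atp6v0c-ps2* was at 39.7% and 34.1% of *Atp6v0c* in apical, 33.7% and 34.8% in middle and 35.4% and 33.1% in basal libraries, a mean of 35.1% ± 2.4 (SD, n = 6) with overlapping turns. The coefficient of variation of the share was 10.2%, 9.71% and 6.84% for the 3 pairs. It was 35.0%, 24.7% and 22.4% for the levels of the copies and 36.8%, 17.2% and 26.2% for those of the parents. Whether the ratio of other, unrelated genes varies as little was not tested. In wild-type libraries the shares were at most 0.0329%, 0.593% and 1.45%. The shares depend on how reads were assigned, and for *Atp6v0c-ps2* and *Atp6v0c* the unique parts of the transcripts differ most, at 35.1% and 80.2% of windows.

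**Figure D4:**
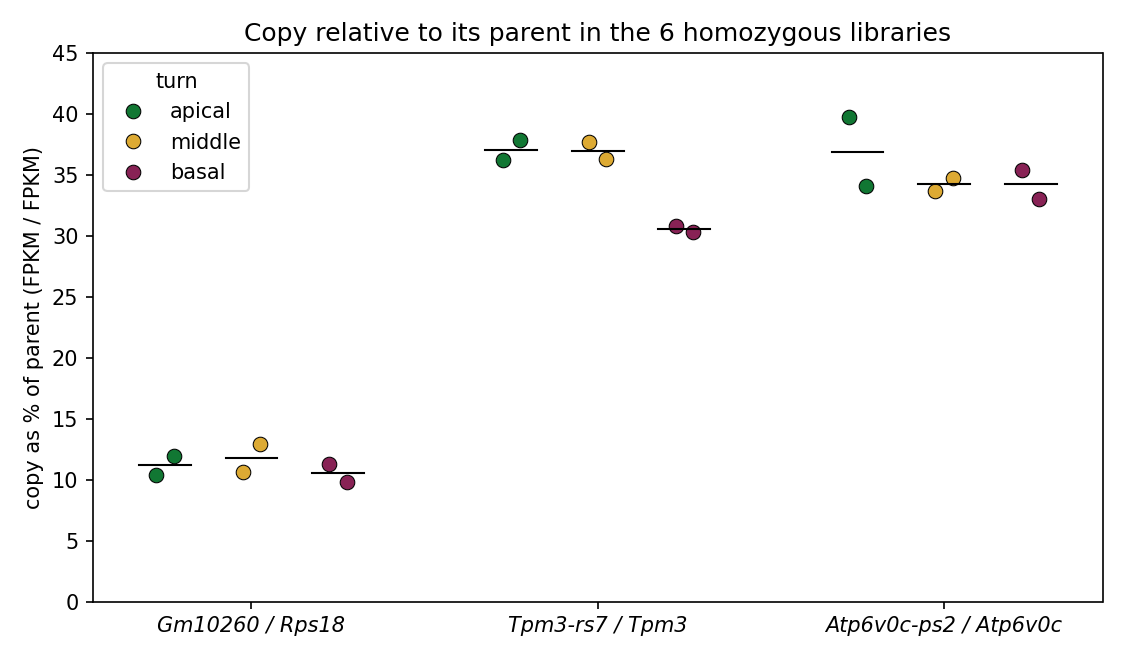
Level of each copy as a percent of the level of its parent in the 6 homozygous libraries, coloured by turn; lines are the means of 2 libraries. *Gm10260* lies between 9.8% and 13.0% of *Rps18*, and the other copies between 30.4% and 39.7% of *Tpm3* or *Atp6v0c*.

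The sum of copy and parent is given as a description because it contains the copy. FPKM is per length, so the split of reads within a pair matters less for the sum only where both transcripts are of similar length. That holds for *Rps18* (560 nt) and *Gm10260* (561 nt), and for *Tpm3* (2230 nt) and *Tpm3-rs7* (2147 nt). For *Atp6v0c* (1183 nt) and *Atp6v0c-ps2* (465 nt), reads assigned to the copy instead of the parent raise the sum. For *Tpm3* and *Tpm3-rs7* the wild-type sum was 47.9 ± 6.59 and the homozygous sum 53.5 ± 10.2 (SD, n = 6 each), whereas *Tpm3* alone was 47.7 ± 6.57 and 39.6 ± 6.79. The mean log2 difference over the turns thus moved from −0.27 for *Tpm3* to 0.15 for the sum. For *Atp6v0c* it moved from −0.21 to 0.21, with sums of 100.6 ± 10.96 and 118.5 ± 29.8. For *Rps18* it moved from −0.51 to −0.36. Without the basal turn, the mean differences of the sums were 0.366 for *Tpm3*, −0.003 for *Atp6v0c* and −0.016 for *Rps18*. A limma fit of the sums passed the threshold in no turn. It is no test of the genotypes, because each sum contains a copy chosen on these values.

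Between turns of homozygous mice, the differences of each copy and its parent had the same sign in every pair of turns. From middle to basal, the log2 difference was −0.76 (SE 0.31) for *Gm10260* and −0.63 (SE 0.41) for *Rps18*. It was −0.67 (SE 0.18) for *Tpm3-rs7* and −0.44 (SE 0.17) for *Tpm3*, and 0.60 (SE 0.21) for *Atp6v0c-ps2* and 0.61 (SE 0.22) for *Atp6v0c*. Over the 6 genes and 3 pairs of turns, limma called 0 of 18 differences, and 7 had an unadjusted p under 0.05. The share of all genes with such a p was not counted between turns, so the 7 cannot be read as a result about the members. The lowest adjusted p by limma was 0.0317, for *Tpm3-rs7* from middle to basal. For the copies the SE, intervals and p can be too small. The fit uses 1 spread for all 6 groups, and the wild-type libraries of the copies, near 0, vary little on the log2 scale. Over all genes, 0% were called from apical to middle, 4.06% from apical to basal and 4.66% from middle to basal. The difference between a copy and its parent was not tested.

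**Figure D5:**
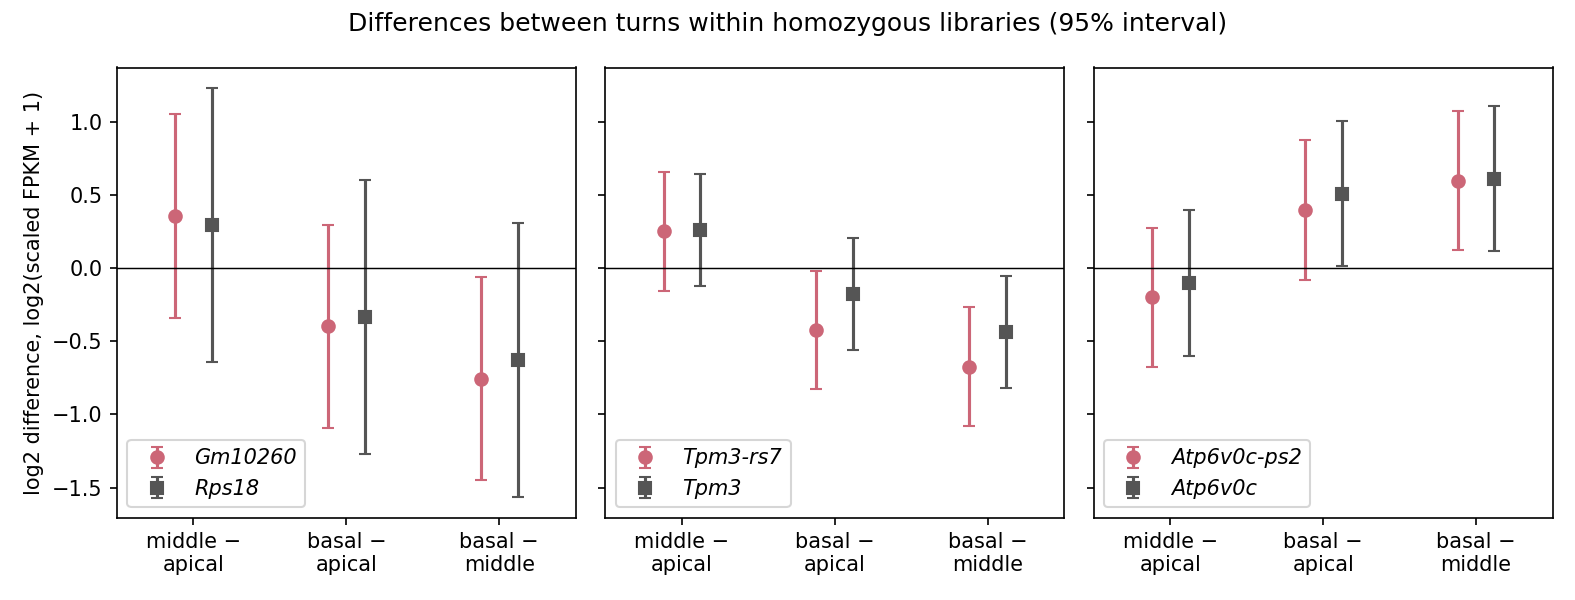
Log2 differences between turns within homozygous libraries for each copy (circles) and its parent (squares), from limma with 95% intervals. The 2 symbols of a pair lie on the same side of 0 in each comparison, and the intervals of the copy and the parent overlap throughout.

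In wild-type mice, where the copies are too low to compare turns, limma called 0 of 9 differences of the parents between turns and 0 had an unadjusted p under 0.05, while 0.0863% of all genes were called from apical to middle, 0.0863% from apical to basal and 0% from middle to basal. The genotype difference of the parents did not pass the test between turns either. Limma called 0 of 9 such differences, and 2 had an unadjusted p under 0.05, both between basal and middle, of −0.72 for *Tpm3* (adjusted p = 0.0591) and 0.81 for *Atp6v0c* (adjusted p = 0.0921). Over all genes 0% were called between middle and apical, 0.796% between basal and apical and 8.91% between basal and middle. For these comparisons, and for those between turns of wild-type mice, the share of all genes at an unadjusted p under 0.05 was not counted.

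The families of the parents were described from lists, whose counts stand beside the shares of all genes given above for the same turns (0.179%, 0.179% and 4.29% called, and 16.4%, 25.4% and 32.4% with an unadjusted p under 0.05). The small ribosomal subunit had 31 members tested and limma called 0 in each turn, with 0, 1 and 9 (apical, middle, basal) below an unadjusted p of 0.05. Their median log2 difference was 0.26, 0.07 and −0.64, against −0.03, 0.04 and −0.02 over all genes. *Rps18* lay below the median of the list by 0.32, 0.36 and 0.54 in the apical, middle and basal turn, and was the lowest of the 31 in the apical and basal turns. The most abundant members, *Rps24*, *Rps15* and *Rps14*, differed by −0.66, −0.54 and −0.87 in the basal turn.

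Tropomyosins cover actin filaments and control the access of myosin. Of the 4 tropomyosin genes limma called 0 in each turn, with 0, 1 and 3 at an unadjusted p under 0.05. *Tpm1* and *Tpm4* had wild-type means of 62.1 and 44.0 and homozygous means of 75.5 and 48.9, both above *Tpm3* by their mean over the genotypes, and *Tpm2* was lower, at 5.07 and 6.58. Of 16 tested partners of tropomyosin at the filament, limma called 0 in each turn, with 4, 4 and 6 at an unadjusted p under 0.05. The actins *Actb* and *Actg1* differed by −0.33 and −0.51 in the basal turn, and *Tmod1*, which caps the slow-growing filament end, by −2.74 (adjusted p = 0.0116). The median of the partners was −0.47 there.

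The V-ATPase joins a membrane sector (V0), which holds the c ring, to a cytoplasmic sector (V1) that uses ATP. Of 12 V0 genes and accessory subunits, limma called 0 in the apical and middle turns and 2 in the basal turn (4.29% of all genes), and 5, 7 and 4 had an unadjusted p below 0.05. There *Atp6v0a1*, a subunit beside the ring, rose by 1.23 (adjusted p = 0.00654) and *Atp6v0e*, a small membrane subunit, fell by 1.30 (adjusted p = 0.0075). *Atp6ap1* and *Atp6v0b*, with *Atp6v0c* the most abundant of the list, differed by −0.09 and 0.20 in the basal turn. Of 10 V1 genes limma called 0 in the apical and middle turns and 1 in the basal turn, and 1, 6 and 5 had an unadjusted p below 0.05. The call was *Atp6v1g2*, a stalk subunit known from neurons, which rose by 2.80 (adjusted p = 0.00579), while *Atp6v1e1*, *Atp6v1f* and *Atp6v1g1* differed by 0.62, −0.11 and −0.63. The calls in both lists were lost when most single libraries were left out.

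Gene by gene, the rows most like each copy over the 12 libraries were other copies with the same split by genotype. Pearson's r of log2(scaled FPKM + 1) was 0.991, 0.988 and 0.987 between *Gm10260* and *Eno1b*, *Gm4735* and *Gm9825*. For *Tpm3-rs7* it was 0.988, 0.987 and 0.986 with *Gm14038*, *Eno1b* and *Gm9825*, and for *Atp6v0c-ps2* 0.993, 0.991 and 0.991 with *Gm14038*, *Gm4735* and *Eno1b*. All of these r rest on the same gap between genotypes. Parents were most like other genes. For *Rps18* these were the ribosomal *Rps3a1*, *Rpl7* and *Rpl32* (r of 0.974, 0.968 and 0.967), for *Tpm3* *Fas*, *Map3k5* and *Gpr160* (0.927, 0.927 and 0.919), and for *Atp6v0c* *Kbtbd3*, *Trnp1* and *Gm14326* (0.947, 0.939 and 0.938).

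Rows with such a split were few. Of all 37432 rows, 9 (0.024%) had at least 1 scaled FPKM in all 6 homozygous libraries and wild-type values that were all more than 10 times below the lowest of these, and 6 (0.016%) showed the reverse. By gene type or a name ending in -ps or -rs, 5686 rows (15.2%) were retrocopies. Most rows are too low for such a split, and of the 16215 genes that reached 1 FPKM in 2 libraries, 363 were retrocopies. Retrocopies made up 6 of the 9 homozygous-high rows and 0 of the 6 wild-type-high rows. The 6 were *Tpm3-rs7*, *Atp6v0c-ps2*, *Gm4735*, *Gm14038*, *Gm9825* and *H2-Ea-ps*. The last is typed as a polymorphic pseudogene, has 4 exons and is not a retrocopy by structure. *Gm10260* and *Eno1b* joined them when genes tagged as retrogenes were added after the values were seen, which gave 8 of 9, and the remaining row, *Hmga1b*, is also 1 exon. Of these rows, 3 are the copies described above and were chosen on this pattern. Without the factor of 10, 8 of 111 homozygous-high rows and 1 of 93 wild-type-high rows were retrocopies.

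The other 5 single or nearly single-exon rows were compared only with transcripts of 3 or more exons outside their own locus. A match to a gene of several exons was therefore set in advance, and closer relatives of fewer exons could not appear. The best match of each row was identical at over 99% of aligned bases. *Gm4735* (homozygous mean 9.91 scaled FPKM, wild-type mean 0.191) and *Eno1b* (12.6 and 0.147) were 99.62% and 99.45% identical to *Eno1*, which encodes a glycolytic enolase. They stood at 5.52% to 6.33% and 6.88% to 7.86% of the *Eno1* level in homozygous libraries. *Gm14038* (4.04 and 0.0733) was 99.38% identical to *Zfand1*, at 48.0% to 63.8% of its level, and *Gm9825* (4.05 and 0.129) 99.41% to *Rnps1*, a splicing-associated factor, at 19.2% to 27.5%. *Hmga1b* (3.89 and 0.0647) was 99.81% identical to *Hmga1*, a chromatin architectural protein, at 21.6% to 33.7% of its level. *Zfand1* itself had a wild-type mean of 9.37 and a homozygous mean of 6.93. These means were 22.2 and 18.4 for *Rnps1*, 163.2 and 169.6 for *Eno1* and 11.6 and 13.2 for *Hmga1*.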

How the data were processed

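Total RNA of P14 cochlear turns was sequenced as 150-nt read pairs. Per the labels and the study's methods, the authors trimmed reads with fastp 0.20.0, aligned them to mm10 with STAR 2.7.3a, kept uniquely mapped reads for counting and deposited FPKM from StringTie 2.0, without stating outright whether from the same reads. They tested counts (featureCounts 2.0.0) with DESeq2 1.30.0, which was not possible here because FPKM are not counts. The depth is unknown, so precision rests on the spread between repeats.

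To scale the libraries, each was divided by the median of its ratios to the geometric mean over 11552 genes present at 1 FPKM throughout. Genes that reached 1 FPKM in 2 libraries (16215) were fitted by limma 3.58.1 in R 4.3.3 as log2(scaled FPKM + 1), which understates changes of low genes, with 6 group means, a variance trend, two-sided tests and Benjamini-Hochberg adjustment. Calls needed an adjusted p below 0.01 and more than a 2-fold change. All 5 members passed the filter, the copies only through homozygous libraries, except *Atp6v0c-ps2*. Copies were matched to GENCODE M21 transcripts with BLAST+ 2.17.0+ and aligned with Biopython 1.88. Gene types come from the same annotation, in which 98.39% of the identifiers matched with version. The fit was tested on simulated data. Members and lists were chosen with earlier results of these data known. Besides members, named genes were called list members, the 3 most abundant of each list, relatives, neighbours, rows most alike and on/off retrocopies. Matches of the other on/off rows, the retrogene tag and the setting without the basal turn were added after the data were seen.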

Additional observations from a re-analysis of the deposited data

Results flagged for a closer look

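In 3 cases a value stood apart from the other 5 libraries of their genotype by Dixon's gap test at the 95% level, out of 15 sets of 6 libraries checked, where chance flags about 1 in 20 sets. *Gm10260* was at 0.0746 scaled FPKM in the first wild-type apical library, with the others between 0 and 0.00706. In the same library *Tpm3-rs7* was at 0.0586, below the others at 0.198 to 0.279. *Atp6v0c-ps2* was at 39.7% of *Atp6v0c* in the first homozygous apical library, above the others at 33.1% to 35.4%. The libraries of a genotype come from different turns, and the cause was not tested.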

How the results depend on the processing

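No parent was called under any other setting, and no member was called between turns. The lowest adjusted p of a parent over all settings was 0.0204 for *Tpm3* in the basal turn. With copy and parent summed into 1 row, the apical difference became 0.10 for *Rps18*, 0.23 for *Tpm3* and 0.18 for *Atp6v0c*, and the mean over turns 0.15 for *Tpm3* and 0.21 for *Atp6v0c*, as the added copy implies. Leaving out single libraries gave −0.27 to 0.16 for *Rps18* in the apical turn (0.16 without the first homozygous and 0.02 without the first wild-type apical library), −0.76 to 0.18 for *Rps18* in the middle turn (0.18 without the second homozygous middle library) and −0.11 to 0.23 for *Tpm3* in the middle turn (−0.11 without the first homozygous and −0.03 without the second wild-type middle library). For *Rps18* in the basal turn the range was −1.66 to −0.68. The cause was not tested.

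The family calls were less stable. The 2 calls of the V0 list fell to 0 with no filter, with only the 4 libraries of a turn and with the replicate block, and to between 0 and 1 with a library left out. The 1 call of the V1 list became 2 with equal sums, 0 with library weights, no filter or the replicate block, and 0 to 2 with a library left out. The partners of tropomyosin had 2 calls with library weights and 0 to 4 with a library left out, the 4 without the second wild-type basal library. The on/off rows at a minimum of 5 numbered 5 (3 retrocopies) and 2, and without the factor of 10 they numbered 111 (8 retrocopies) and 93 (1 retrocopy). In the apical and middle turns only, an alternative chosen after the data were seen, 38 rows were homozygous-high, 9 of them retrocopies. Whether turns with the same repeat number came from the same mouse is not given in the sources used here. Replicate deviations correlated over 0.1 in 4 of 15 pairs of groups (−0.43 to 0.45), which cannot settle it. Under the replicate block *Tpm3* in the basal turn kept −0.66, and no call of a parent or of a difference between turns changed. Of 715 values under alternatives, 667 kept their direction and their side of the threshold or stayed near the reported value. Some of the 667 could not change, such as the percent of a parent under another library scaling. The same holds for a homozygous mean without a wild-type library.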
